A study of Mus musculus with 7 samples.

Results

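The genes described here encode the proteins of the cytosolic ribosome. They were taken from the array's platform annotation as every probe set with exactly 1 gene symbol of the form Rpl or Rps plus a number, together with Rplp0, Rplp1, Rplp2 and Rpsa. S6 kinases, genes marked as pseudogenes and predicted genes were left out. That gave 67 genes (108 probe sets) of the 22180 genes with a probe set of 1 symbol. Where a gene had several such probe sets, the brightest over all 7 arrays stands for it. Of the 67 genes, 35 encode standard proteins of the large subunit and 23 of the small subunit. The other 9 are paralogues, retrogenes or like-named genes: Rpl10l, Rpl22l1, Rpl32l, Rpl39l, Rpl3l, Rpl7l1, Rps27l, Rps23rg1 and Rps19bp1. The last encodes a protein that binds Rps19 and is no ribosomal subunit. The 67 do not cover the ribosome: 12 further standard subunit genes had only probe sets annotated to several genes (among them Rpl10, Rpl23, Rpl13a and Rps2).

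The samples were hematopoietic stem cells (HSC), the rare marrow cells from which all blood forms, of mice with a knockout of Ahr (Ahr-KO, 3 arrays) and of wild-type mice (WT, 4 arrays). Ahr encodes the aryl hydrocarbon receptor, a ligand-activated transcription factor. All mice had the C57BL/6J background, were weaned at 3 weeks and were killed at 8 weeks of age. Marrow was depleted of cells carrying lineage markers, HSC were taken from the remainder by SLAM-family surface proteins, and cDNA amplified from their total RNA was hybridised to Affymetrix arrays. The labels give neither the Ahr allele nor the deleted part of the gene. They do not tell whether arrays came from separate mice or from pools. A p-value here reflects scatter among these 7 arrays and no more, part or all of which may be technical. Except where stated, the scatter of all annotated probe sets enters the p-value of each gene.

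A ribosome joins a small subunit, which reads the messenger RNA, to a large subunit, which forms the peptide bond. Most of its proteins are needed in equal amounts, and their genes are expressed at high levels and are usually controlled together. Much of this control acts on translation, through a run of pyrimidines at the very start of the messenger (the 5′ terminal oligopyrimidine tract, or TOP) that makes it respond to the kinase mTOR. HSC keep a low rate of protein synthesis compared with their progeny, and loss of single ribosomal proteins causes blood disease, as in Diamond-Blackfan anemia and the 5q- syndrome.

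The start windows printed next show where this tract is present and where it is not, for genes whose arrays separated by genotype and for other genes with a tract. They run from 25 bases before to 15 bases after the transcription start in RefSeq (GRCm38.p6), 5′ to 3′ on the gene's strand. Capitals mark a pyrimidine run that begins with C within 4 bases of the start and holds at least 5 bases, and a window in small letters has none. The first 6 genes have such a run.
Rpl15: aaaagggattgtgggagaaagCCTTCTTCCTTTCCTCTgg
Rpl7a: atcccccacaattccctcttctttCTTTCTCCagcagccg
Rpl28: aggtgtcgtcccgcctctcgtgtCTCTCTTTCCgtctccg
Rpl35: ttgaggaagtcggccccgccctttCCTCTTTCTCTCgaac
Rps6: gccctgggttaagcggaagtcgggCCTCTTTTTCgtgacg
Rps10: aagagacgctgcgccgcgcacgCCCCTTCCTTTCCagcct
Rps25: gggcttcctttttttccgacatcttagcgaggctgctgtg
Rps28: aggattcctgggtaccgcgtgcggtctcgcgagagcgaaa
Rpl10a: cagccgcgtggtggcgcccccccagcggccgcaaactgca
In that order they lie at chr14:18270972-18271011 (minus strand), chr2:26910782-26910821 (plus strand), chr7:4792940-4792979 (plus strand), chr2:39005117-39005156 (minus strand), chr4:86857353-86857392 (minus strand), chr17:27635230-27635269 (minus strand), chr9:44407689-44407728 (plus strand), chr17:33824548-33824587 (minus strand) and chr17:28328446-28328485 (plus strand). The window of Rpl10a is that of the more upstream of its RefSeq starts, and the other holds no such run either.

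RefSeq start windows were found for 54 of the 67 genes. A pyrimidine run of this kind was present in 22 of the 54 (40.7%), against 16.4% of 27025 genes with a window. A run of at least 5 pyrimidines opening with C exactly at the annotated start was present in 11 (20.4%), against 3.01%. The RefSeq start can lie some bases away from the start used in the cell, so a missing run says only that these letters are not in this place. Within the full 300 bases (250 before and 50 after the start), searched on both strands, CCGGAAG, the core of an ETS factor site, was in 42.6% of the 54 genes and 9.93% of all genes. GCGTG, the core bound by Ahr with its partner, was in 63.0% against 35.2%. The Sp1 site GGGCGG was in 53.7% against 38.2% (49.2% of protein-coding genes), the YY1 site AAGATGGC in 5.56% against 3.19%, and TATAAA in 11.1% against 15.7%. The windows of the ribosomal protein genes were richer in G and C, at a median of 57.7% against 52.7% in all genes and 56.3% in protein-coding genes. Of the 17491 protein-coding genes, 12.9% held CCGGAAG and 41.4% GCGTG. A gene with several RefSeq starts was counted once. These matches describe the windows and not binding.

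The probe set of Ahr itself read 34.1, 137 and 26.4 on the arrays labelled Ahr-KO and 31.3, 57.9, 14.9 and 20.5 on those labelled WT. The groups overlapped and most values lay near background, so this probe set did not separate the genotypes and every direction given here rests on the labels alone. Olfactory receptor genes are silent in most tissues, and a background mark was set on each array at the 95th percentile of their 1091 probe sets, at 33.8 to 42.9 on the linear intensity scale of the deposited table. Between 30.6% and 44.7% of the 25335 annotated probe sets lay above this mark on an array. Of 10 HSC markers measured, 5 were above it on all 7 arrays, as were 8 of 14 granulocyte and monocyte markers. The summed intensity of the 14 spanned 8491 to 21687 in the knockout group and 2718 to 22670 in the wild-type group. Of 7 B lymphoid markers 4 stayed at or below the mark on every array. Slamf1, a surface protein used to sort HSC, read 57.4, 78.0 and 236 in knockout HSC and 4.56, 23.3, 7.81 and 73.3 in wild-type HSC, above the mark on 3 of 3 and 1 of 4 arrays. The 10 HSC markers, Slamf1 among them, had a mean log2 value of 7.52 in the knockout and 7.43 in the wild-type group. Their summed intensity spanned 2783 to 3536 in the knockout group and 2921 to 7470 in the wild-type group, highest on WT 3. Cd48, a surface protein that HSC lack, read 443, 253 and 117 in knockout and 11.5, 171, 679 and 12.2 in wild-type HSC, above the mark on 3 of 3 and 2 of 4 arrays. The part of cell composition in the differences between arrays was not tested. In bulk samples such as these, fewer cells of a type and less RNA per cell cannot be told apart.

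Signal was strong and steady for most ribosomal protein genes. Of the 67, 51 were above the background mark on all 7 arrays, 13 on some and 3 on none (Rpl5, Rps16 and Rpl32l), while 3636 of all 25335 probe sets were above it on all 7. A mean of at least 10 on the scale log2(intensity + 1), called bright below, was reached by 41 genes, 24 of the large and 17 of the small subunit. The SD within genotype of these 41 had a median of 0.15 on that scale, 0.19 for the large and 0.13 for the small subunit. It was 0.31 for the 333 other probe sets with a mean of at least 10 and 0.93 for all annotated probe sets. Those 333 had a median level of 10.74, against 11.80 for the 41 genes. Of the 333, 25 are shared between ribosomal protein genes and other symbols. The brightest 1% of probe sets held 199 besides those of the 67 genes, with a median SD of 0.24. Brightness depends on the probes, so no order of abundance among the genes is read from it.

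No ribosomal protein gene passed the test between the genotypes after adjustment. Differences are given as Ahr-KO minus WT on the log2(intensity + 1) scale, with limma's moderated p. None of the 67 genes had an adjusted p below 0.05, and neither did any other annotated probe set (0% of 25335). The smallest adjusted p among the 67 was 0.963. Moderation draws each gene's variance toward a common value of all annotated probe sets. For the 41 bright genes the median standard error was 0.40 with it and 0.11 from each gene's own scatter. The moderated standard error was at least 0.39 for every gene, and the bright genes differed by -0.24 to 0.60. Differences of that size could not pass in this fit, so the lack of calls does not show equal levels. At an unadjusted p below 0.05 there was 1 gene, Rpl3l, on the higher side, against a background of 4.21% of all annotated probe sets (1.99% higher and 2.22% lower). With a variance prior that follows intensity there were 3 (Rpl15, Rpl7a and Rpl3l), against 4.15% of all. Without moderation there were 2 (Rpl15 and Rpl7a), against 4.32%, and with a robust prior 0, against 3.96%. None passed after adjustment in these fits either. Without Ahr-KO 1, without Ahr-KO 3 or without WT 1 there was none in the standard fit. The direction leaned to higher values in Ahr-KO, in 44 of 67 genes with 23 lower, and the median difference was 0.08. With 1 array left out this median ran from 0.05 (without Ahr-KO 1 or WT 3) to 0.12 (without Ahr-KO 2). Of all annotated probe sets 48.3% were higher, with a median of -0.03, and of those above the background mark on all 7 arrays 51.6%. The split depended on the scaling, with 34 of 67 genes higher (median 0.03) after quantile normalization and 51 (median 0.14) after centring each array on its median. The other probe sets with a mean of at least 10 leaned the same way, with 218 of 333 (65.5%) higher and a median of 0.07. Of the 25 among them shared with ribosomal protein genes 18 were higher. Among the 41 bright ribosomal protein genes 31 (75.6%) were higher, with a median of 0.08.

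**Figure D1:**
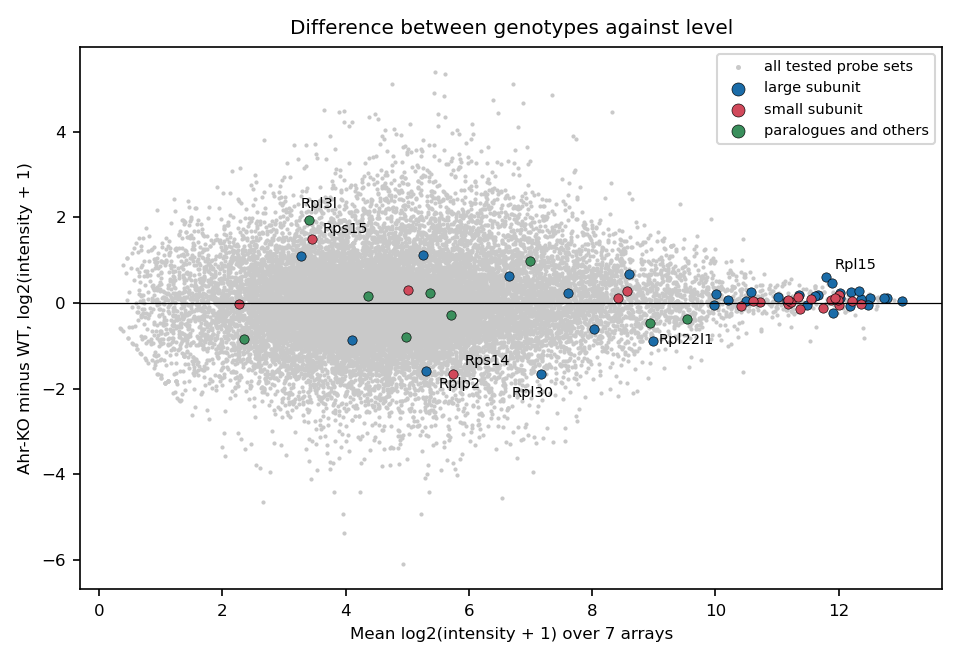
Each point is a probe set, with its mean log2(intensity + 1) over 7 arrays on the horizontal axis and the difference Ahr-KO minus WT on the same scale on the vertical axis. Ribosomal protein genes are coloured by class and all 25335 annotated probe sets are grey; the genes at a mean of 10 or more lie between -0.24 and 0.60, and the larger differences belong to dim probe sets.

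In 6 of the 67 genes (8.96%) the 3 Ahr-KO arrays did not overlap the 4 WT arrays, against a background of 5.74% of all annotated probe sets and 6.44% of those above the background mark on all arrays. All 6 were bright, which made 14.6% of the 41 bright genes, against 3.90% of the 333 other probe sets with a mean of at least 10. The 333 lie at a lower median level and include 25 shared with ribosomal protein genes. The difference between 14.6% and 3.90% was not tested. Higher in Ahr-KO were Rpl15, Rpl7a, Rpl32 and Rpl10a, all of the large subunit, and lower were Rps25 and Rps28, both of the small subunit. Over all annotated probe sets 2.61% were higher without overlap and 3.13% lower. With fewer arrays more values separate, and with 1 array left out the number ran from 8 to 13 of 67 (11.9% to 19.4%), against 9.27% to 14.5% of all. It was 13 without Ahr-KO 3 (against 13.2% of all) or WT 4 (against 10.2%), and 9 (13.4%) without Ahr-KO 2 (against 14.5%) or Ahr-KO 1 (against 12.6%). After quantile normalization it was 4 (5.97%, against 5.23%).

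Rpl15 encodes a large-subunit protein that is mutated in some families with Diamond-Blackfan anemia. Its linear intensity came to 5431, 4394 and 3838 in knockout HSC and 3597, 2698, 2306 and 3511 in wild-type HSC. The lowest Ahr-KO array lay just above the highest WT array, and Ahr-KO 1 stood highest of all. The means were 4554 ± 809 (SD, n = 3) and 3028 ± 629 (SD, n = 4), a difference of 0.60 with a standard error of 0.43 (unadjusted p = 0.200, adjusted p = 0.963, limma). From the gene's own scatter, without moderation, the standard error was 0.22. Leaving out each array in turn gave 0.46 to 0.71.

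Rpl7a, another protein of the large subunit, read 5445, 3967 and 4374 in knockout HSC and 3816, 3024, 2923 and 3489 in wild-type HSC. WT 1 came within a short distance of Ahr-KO 2, and Ahr-KO 1 was again the highest array. The means were 4596 ± 763 (SD, n = 3) and 3313 ± 416 (SD, n = 4), and the difference was 0.47 with a standard error of 0.41 (unadjusted p = 0.287, adjusted p = 0.963, limma). The next brightest probe set of the gene gave 5140.1, 3712 and 4230.4 in knockout HSC and 3694, 2931, 2793 and 3312 in wild-type HSC, also without overlap. A dim probe set of the gene, near background, read 59.7, 30.7 and 66.3 in knockout and 59.8, 49.7, 93.0 and 39.5 in wild-type HSC, which overlapped.

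Rpl32 read 5686, 5692 and 5903 in knockout HSC and 5518, 5346, 3386 and 5203 in wild-type HSC. The Ahr-KO values were tight, and WT 3 lay far below the other 3 WT arrays. The difference was 0.27 with a standard error of 0.42 (limma), and 0.11 without WT 3. Rpl10a encodes the protein of the L1 stalk, the mobile arm beside the exit site for spent transfer RNA. Its values were 2775, 2799 and 2935 in knockout HSC and 2717, 2416, 2145 and 2720.0 in wild-type HSC, where WT 1 and WT 4 came close to the Ahr-KO arrays. The difference was 0.19 with a standard error of 0.40 (limma).

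Rps25, a protein of the small subunit's head that some viral messengers need for translation, read 2443, 2559 and 2546 in knockout HSC and 2827, 3023, 2583 and 2584 in wild-type HSC. The gap between the groups was narrow, since Ahr-KO 2, Ahr-KO 3, WT 3 and WT 4 lay close together. The difference was -0.13 with a standard error of 0.39 (limma). Rps28, which sits near the exit of the messenger channel and is another Diamond-Blackfan gene, read 4096, 3930.4 and 4051 in knockout and 4113, 4318, 4153 and 4122 in wild-type HSC. Ahr-KO 1 and WT 1 nearly met. The difference was -0.05 with a standard error of 0.39 (limma) and became 0.0027 after median centring. The SD within genotype, 0.03 on the log2 scale, was the smallest of all 67 genes. The dim second probe set of Rps28 read 71.6, 173 and 86.2 in knockout HSC and 1.44, 46.5, 29.1 and 42.6 in wild-type HSC, higher in Ahr-KO without overlap and so opposite to the bright one.

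**Figure D2:**
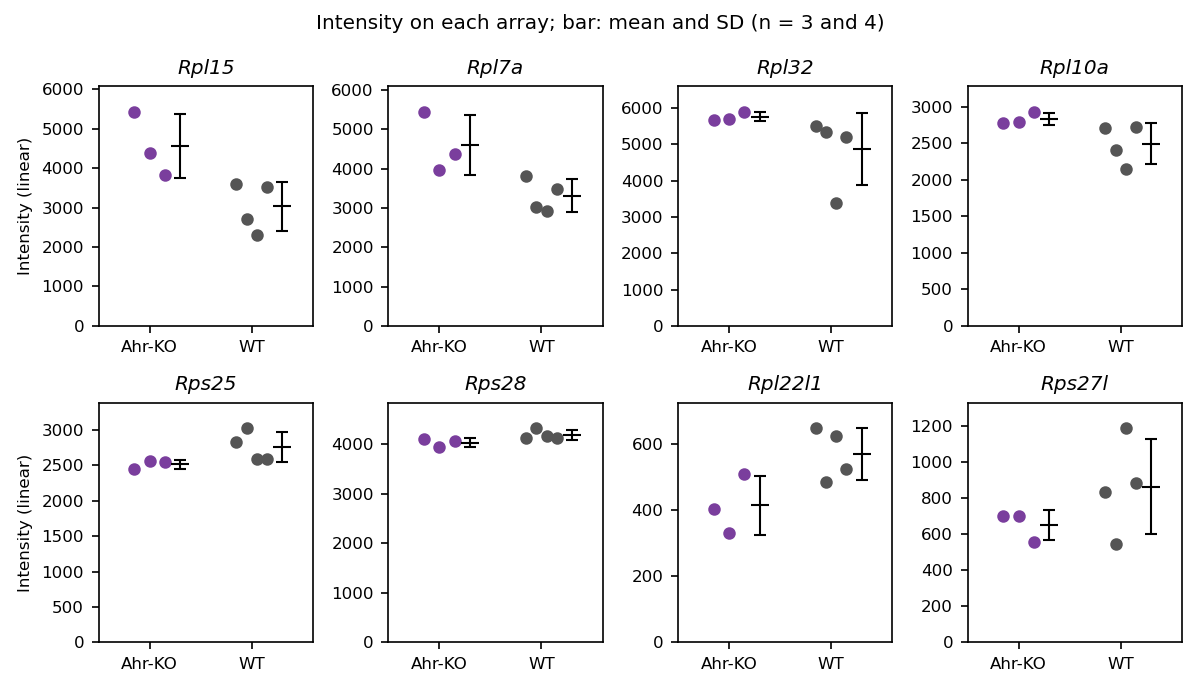
Linear intensity on each array (points) with the mean and SD beside them, for the 6 genes whose arrays did not overlap between genotypes and for the paralogues Rpl22l1 and Rps27l. The Ahr-KO points (n = 3) of Rpl15, Rpl7a, Rpl32 and Rpl10a lie above all WT points (n = 4), those of Rps25 and Rps28 lie below them, and those of Rpl22l1 and Rps27l overlap them.

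Of the 35 large-subunit genes 25 were higher in Ahr-KO and 10 lower, with a median difference of 0.13 and none past the test. Among the 24 bright ones, 20 were higher with a median of 0.13. That number was 16 after quantile normalization, 22 after median centring and 18 without WT 3. Some of these proteins surround the tunnel through which the new peptide leaves. Rpl4, which lines the tunnel, read 3629, 3043 and 3927 in knockout HSC and 3604, 5010.1, 4455 and 3659.8 in wild-type HSC, with WT 2 and WT 3 highest. Rpl35, beside the tunnel's mouth, read 5955, 5684 and 5304 in knockout and 6792, 5571, 5077 and 5819.9 in wild-type HSC. The groups of both genes overlapped, and Rpl4's other bright probe set read 3565, 3929 and 3885 in knockout and 4497, 3375, 2797 and 3843 in wild-type HSC, with WT 3 now the lowest array. Rpl17, also at the tunnel's mouth, read 111, 356 and 218 in knockout HSC and 514, 171, 391 and 281 in wild-type HSC. Its groups overlapped, and its difference was -0.61 with a standard error of 0.60 (limma).

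Several other bright large-subunit genes overlapped between the genotypes. Rpl13 read 6559, 5676 and 6184 in knockout HSC and 6322, 6093, 4662 and 5604 in wild-type HSC. Rpl28 read 7844, 7321 and 6997 in knockout and 7224, 6797, 5970.4 and 7326 in wild-type HSC. Rpl21 read 5914, 5183 and 5400.2 in knockout and 5608, 5200.2, 4564 and 5087 in wild-type HSC. In all 3 genes WT 3 was the lowest array and the remaining arrays of both genotypes interleaved. Rpl41, which encodes a very short basic peptide, read 6910.5, 7594 and 7066 in knockout HSC and 7137, 6360.3, 5886 and 7012 in wild-type HSC, with WT 3 lowest here too. Rpl27, a Diamond-Blackfan gene, read 5066, 4997 and 5530.4 in knockout and 5974, 4164, 3326 and 4322 in wild-type HSC. Its WT arrays held both the highest and the lowest value. A dimmer probe set of Rpl27, above background on every array, differed by -0.27, against 0.26 for the brighter. Rpl29, whose loss leaves mice small, read 4129, 4844 and 4226 in knockout and 3964, 3802, 3746 and 4633 in wild-type HSC, overlapping. Its dimmer probe set, also above background on every array, differed by -0.21, against 0.13 for the brighter. Rpl38, the gene mutated in the tail-short mouse, read 4399, 4438 and 4843 in knockout HSC and 4115, 5601, 4795 and 4715 in wild-type HSC, where WT 1 was the lowest and WT 2 the highest array.

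The stalk that recruits the GTPases of translation is built on Rplp0 and carries the acidic proteins Rplp1 and Rplp2. Rplp0 read 1327, 971 and 1371 in knockout HSC and 1088, 991, 1308 and 1232 in wild-type HSC, and Rplp1 read 8856, 8228 and 8551 in knockout and 9191, 8614, 7036 and 8360.0 in wild-type HSC. In neither did the groups separate. A dimmer probe set of Rplp0, above background on all 7 arrays, differed by -0.76, against 0.07 for the brighter. Rplp2 read 9.58, 15.4 and 53.9 in knockout and 745, 6.89, 9.21 and 271 in wild-type HSC. Only 1 Ahr-KO array and 2 WT arrays of this probe set were above background. Its difference was -1.59 with a standard error of 1.68 (limma), and -0.40 without WT 1. A probe set of Rplp2 shared with other symbols, above background on all 7 arrays, differed the other way, by 0.82.

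Rpl5 and Rpl11 form, with the 5S ribosomal RNA, the particle that binds Mdm2 and stabilises p53 when ribosome assembly fails. Rpl5 read 16.6, 17.7 and 9.36 in knockout HSC and 4.49, 6.17, 3.51 and 12.6 in wild-type HSC, below the mark on every array. Rpl11 read 9.36, 10.5 and 14.7 in knockout and 10.7, 60.1, 22.8 and 13.4 in wild-type HSC, above it on WT 2 only. The difference of Rpl5 was 1.10 with a standard error of 0.54, and that of Rpl11 was -0.85 with a standard error of 0.65 (limma). At these intensities the arrays give little beyond background for either gene. A probe set that Rpl5 shares with other symbols, not above background on all 7 arrays, differed the other way, by -0.44. Rpl26, a Diamond-Blackfan gene whose protein also binds the p53 messenger, read 30.6, 121 and 54.0 in knockout HSC and 36.2, 15.4, 14.1 and 58.7 in wild-type HSC, with Ahr-KO 2 standing out. Its difference of 1.13 with a standard error of 0.71 (limma) rests on values on either side of background. A probe set that Rpl26 shares with other symbols, above background on all 7 arrays, differed by 0.10.

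In 4 further large-subunit genes the arrays disagreed within a genotype. Rpl30, which binds kinked RNA at the interface between the subunits, read 112, 48.8 and 74.2 in knockout HSC and 171, 1158, 150.4 and 102 in wild-type HSC. WT 2 stood far above the other 6 arrays, and the difference of -1.65 (standard error 0.86, limma) became -0.89 without it. Rpl34 read 691, 135 and 480.1 in knockout and 599.9, 668, 628 and 733 in wild-type HSC, with Ahr-KO 2 far below the rest. Its difference of -0.88 (standard error 0.62, limma) became -0.19 without that array. The brightest probe set that each shares with other symbols differed the other way, by 0.23 for Rpl30 and 0.13 for Rpl34, and was above background on all 7 arrays. Rpl27a, the gene mutated in the sooty foot ataxia mouse, read 181, 77.0 and 151 in knockout and 9.88, 33.0, 567 and 232 in wild-type HSC. Rpl37a read 482, 509 and 532 in knockout and 1618, 22.2, 399 and 690.1 in wild-type HSC. In both of these the WT arrays held the highest and the lowest value. The brightest probe set that each shares with other symbols, above background on all 7 arrays, differed by 0.07 for Rpl27a and 0.12 for Rpl37a.

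Rpl22 binds RNA outside the ribosome as well and is needed for the development of αβ T cells, and its paralogue Rpl22l1 is known to rise when Rpl22 is lost. Rpl22 read 3709.7, 3341 and 3034 in knockout HSC and 3419, 3582, 2157 and 2938 in wild-type HSC, with WT 3 lowest. Rpl22l1 read 404, 330.2 and 509 in knockout and 648, 486, 625 and 524 in wild-type HSC. The highest Ahr-KO value of Rpl22l1 lay between the lowest and the second-lowest WT values, so 2 of 3 Ahr-KO arrays were below all WT arrays. Its means were 415 ± 90.0 (SD, n = 3) and 571 ± 78.1 (SD, n = 4), and its difference was -0.47 with a standard error of 0.42 (unadjusted p = 0.292, adjusted p = 0.963, limma).

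Of the 23 small-subunit genes 15 were higher in Ahr-KO and 8 lower, with a median difference of 0.04 and none past the test. Among the 17 bright ones 11 were higher with a median of 0.04, and after quantile normalization 5 were higher with a median of -0.03. Without WT 2 the median of the 17 was 0.0013. Rps6, the substrate of the S6 kinases downstream of mTOR, read 4540.2, 3392 and 3684 in knockout HSC and 3724, 3884, 3441 and 3664 in wild-type HSC. Apart from Ahr-KO 1, all of its arrays interleaved. Rps3, at the entry of the messenger channel, read 2524, 2829 and 2887 in knockout and 2823, 1846, 2524 and 2886 in wild-type HSC, with WT 2 lowest. Rpsa, also known as a laminin receptor and mutated in isolated congenital asplenia, read 2265, 2219 and 2687 in knockout HSC and 2260.1, 2675, 1939 and 2288 in wild-type HSC. Its highest values, on Ahr-KO 3 and WT 2, came from different genotypes.

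The 5 smallest spreads within genotype all belonged to small-subunit genes, in order Rps28, Rps25, Rps3a1, Rps12 and Rps26. Rps3a1, on the platform of the subunit, read 1632, 1491 and 1646 in knockout HSC and 1476, 1443, 1681 and 1586 in wild-type HSC. Rps12, in the head, read 5039.9, 5597 and 5097 in knockout and 5366, 5399.6, 4781 and 5603 in wild-type HSC. Rps26, a Diamond-Blackfan gene at the exit of the messenger channel, read 2326, 2448 and 2463 in knockout and 2276, 2165, 2639 and 2459 in wild-type HSC. The 2 groups overlapped in each. Rps4x, encoded on the X chromosome, read 3426, 3050.1 and 3338 in knockout HSC and 3402, 3268, 3591 and 3910.4 in wild-type HSC, and Rps18, which reaches the subunit interface, read 4774, 4274 and 5585 in knockout and 4436, 4621, 4891 and 4925 in wild-type HSC. These overlapped as well.

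Rps19 is the gene most often mutated in Diamond-Blackfan anemia, and loss of RPS14 on the long arm of human chromosome 5 underlies the anemia of the 5q- syndrome. Rps19 read 2279, 2478 and 2153 in knockout HSC and 2310.0, 2026, 2277 and 2717 in wild-type HSC, with the highest and the lowest value both in WT. A dimmer probe set of Rps19, above background on all 7 arrays, differed by 0.53, against -0.01 for this one. Rps14 read 18.6, 25.1 and 40.7 in knockout and 388, 6.27, 143 and 139.8 in wild-type HSC. Its WT arrays ran from below background to well above it, only Ahr-KO 3 exceeded background among the knockouts, and the difference of -1.65 had a standard error of 1.25 (unadjusted p = 0.225, adjusted p = 0.963, limma). Without WT 2 it was -2.84 (unadjusted p = 0.0025, adjusted p = 0.884, limma), and without WT 1 it was -0.93. Rps7, also a Diamond-Blackfan gene, read 398, 412 and 463 in knockout HSC and 383, 271, 339 and 423 in wild-type HSC, a difference of 0.28 with a standard error of 0.41 (limma), and its groups overlapped.

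Rps27 and its paralogue Rps27l, a target of p53, are near-identical proteins. Rps27 read 80.7, 25.8 and 21.2 in knockout HSC and 123, 49.6, 5.34 and 17.7 in wild-type HSC, scattered about background. A probe set that Rps27 shares with other symbols, above background on all 7 arrays, differed by 0.09. Rps27l read 700.0, 698 and 554 in knockout and 836, 545, 1187 and 885 in wild-type HSC, where WT 2 fell below all Ahr-KO arrays and the other WT arrays lay above them. The difference of Rps27l was -0.36 with a standard error of 0.45 (limma). Of the small-subunit genes Rps15 and Rps16, the first was above background on Ahr-KO 1 and WT 1 only and the second on no array. Rps15 read 65.7, 7.6 and 12.7 in knockout and 51.3, 0.01, 15.2 and 1.9 in wild-type HSC, and Rps16 read 17.3, 4.06 and 0.16 in knockout and 12.4, 1.31, 0.01 and 16.6 in wild-type HSC. Their values crossed between the genotypes. A probe set that Rps16 shares with other symbols was above background on all 7 arrays.

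The rule for giving values on every array, set out under data processing, left out 18 ribosomal protein genes: Rpl3, Rpl6, Rpl7, Rpl8, Rpl9, Rpl14, Rpl19, Rpl23a, Rpl37, Rpl39, Rps9, Rps10, Rps13, Rps20, Rps23, Rps23rg1, Rps24 and Rps29. All 18 overlapped between the genotypes, because the rule takes in every gene without overlap. It also takes in the smallest p-values. Of the 18, 15 were higher in Ahr-KO and 3 lower, and the differences ran from -0.08 to 0.26 with a median of 0.12. Dimmer probe sets of some lay outside this range, such as 2.41 for Rpl3, 1.27 for Rps20, 0.90 for Rpl9 and 0.63 for Rps24. Those of Rpl9 and Rps24 were above background on all 7 arrays. Rpl7, of the large subunit, read 1636, 1822 and 1624 in knockout HSC and 1559.5, 1371, 1154 and 1630.4 in wild-type HSC. The lowest Ahr-KO value, on Ahr-KO 3, lay just under WT 4, and the difference was 0.26 with a standard error of 0.41 (limma). Rpl14 read 3885, 3525 and 3129 in knockout and 3089.9, 2761, 3031 and 3482 in wild-type HSC, with the highest arrays, Ahr-KO 1 and Ahr-KO 2, in the knockout group. Rps10, a Diamond-Blackfan gene of the subunit's head, read 4955, 4221 and 4124 in knockout HSC and 4237, 4122, 3571 and 3735 in wild-type HSC, with WT 1 among the knockout values. The differences of Rpl14 and Rps10 were 0.18 and 0.18, with standard errors of 0.40 and 0.40 (limma).

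**Figure D3:**
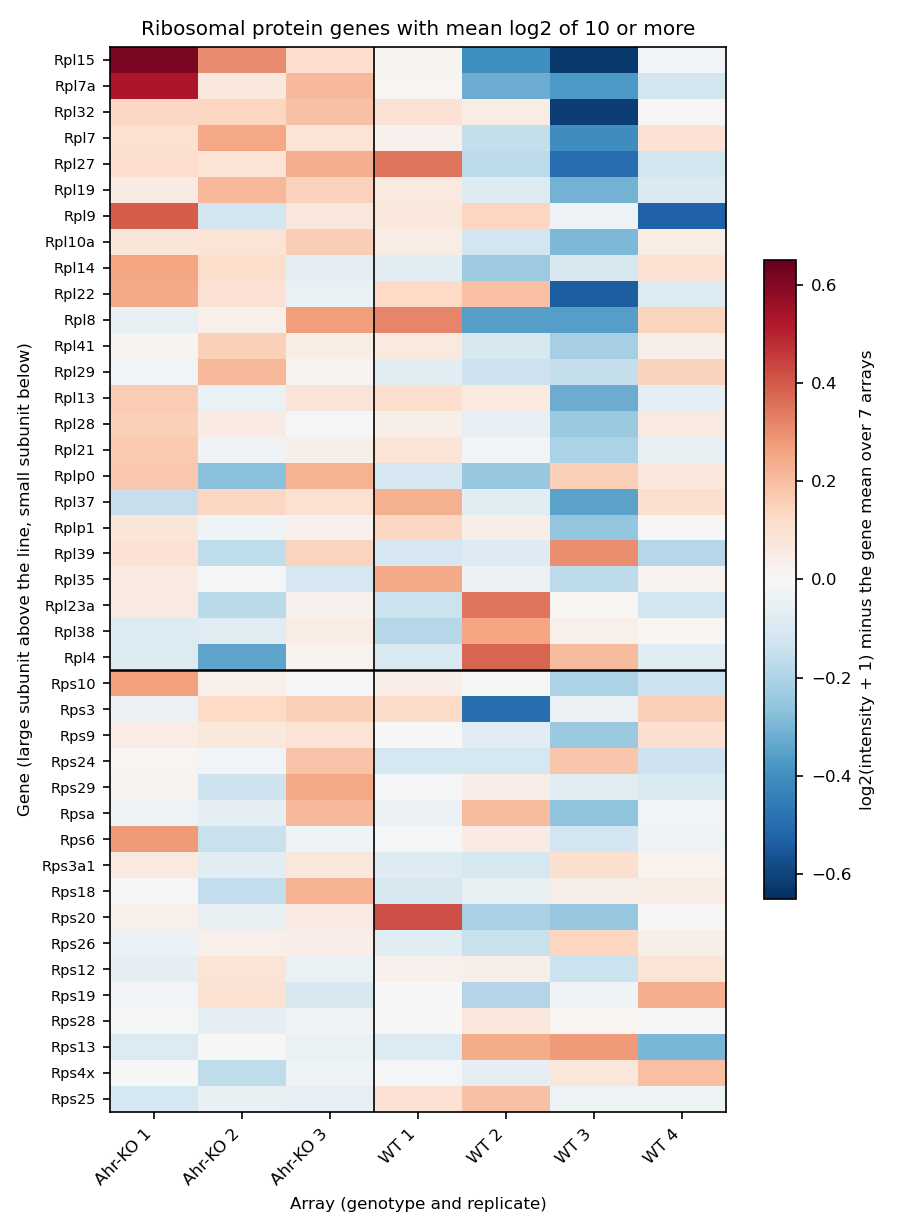
Heat map of the 41 genes with a mean log2(intensity + 1) of at least 10, large subunit above the horizontal line and small subunit below, each ordered by the difference between genotypes. Colour is each array's log2 value minus the gene's mean over the 7 arrays; WT 3 is the lowest array in 17 of 24 large-subunit genes and in 5 of 17 small-subunit genes.

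Of the 9 paralogues and like-named genes 4 were higher in Ahr-KO and 5 lower, with a median of -0.29. Rpl22l1, Rps27l and Rpl39l, the 3 that were above background on all 7 arrays, were all lower on average. Rpl39l, whose product replaces Rpl39 mainly in the testis, read 46.9, 36.4 and 55.5 in knockout HSC and 47.3, 61.1, 75.4 and 44.5 in wild-type HSC. Its groups overlapped, and the difference was -0.29 with a standard error of 0.44 (limma). Rpl3l, the form of Rpl3 found in heart and skeletal muscle, read 69.1, 9.73 and 14.6 in knockout HSC and 6.77, 1.43, 12.1 and 4.05 in wild-type HSC. Only Ahr-KO 1 exceeded background, so the difference of 1.93 (standard error 0.83, unadjusted p = 0.0489, adjusted p = 0.963, limma) comes from values that are otherwise not above it. Rpl10l, an autosomal retrogene of the X-linked Rpl10 used in the testis, read 89.6, 28.5 and 33.9 in knockout and 28.3, 71.9, 41.4 and 23.4 in wild-type HSC. Rpl7l1 read 15.8, 54.5 and 11.9 in knockout HSC and 34.4, 32.3, 26.3 and 77.9 in wild-type HSC, and Rpl32l, below background throughout, read 1.37, 1.68 and 6.74 in knockout and 11.2, 4.31, 5.44 and 3.37 in wild-type HSC. All 3 overlapped between the genotypes. Rps19bp1, whose product binds Rps19 and the deacetylase Sirt1, read 59.2, 205 and 538 in knockout HSC and 103, 32.4, 91.8 and 249 in wild-type HSC, with Ahr-KO 3 highest and WT 2 lowest. Its difference was 0.99 with a standard error of 0.92 (limma).

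Among the wild-type arrays, WT 3 stood low for the bright large-subunit genes. It was the lowest of the 7 arrays in 22 of the 41 bright genes, in 17 of 24 of the large subunit and 5 of 17 of the small subunit. Among the 333 other probe sets with a mean of at least 10, WT 3 was lowest in 81 (24.3%), and WT 2 was lowest in 88 (26.4%). The 333 include 25 shared with ribosomal protein genes, and WT 3 was lowest in 10 of these. On WT 3 the large-subunit genes lay a median of 0.25 below their own means, the small-subunit genes 0.03 below and the other bright probe sets 0.10 below. Ahr-KO 1 was the highest array in 10 of the 41. The mean log2 value of the 41 genes came to 11.70 ± 0.04 (SD, n = 3) for the knockout group and 11.61 ± 0.08 (SD, n = 4) for the wild-type group, with WT 3 lowest at 11.50. Without WT 3 the median difference of the 24 bright large-subunit genes was 0.08, against 0.13 with it.

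**Figure D4:**
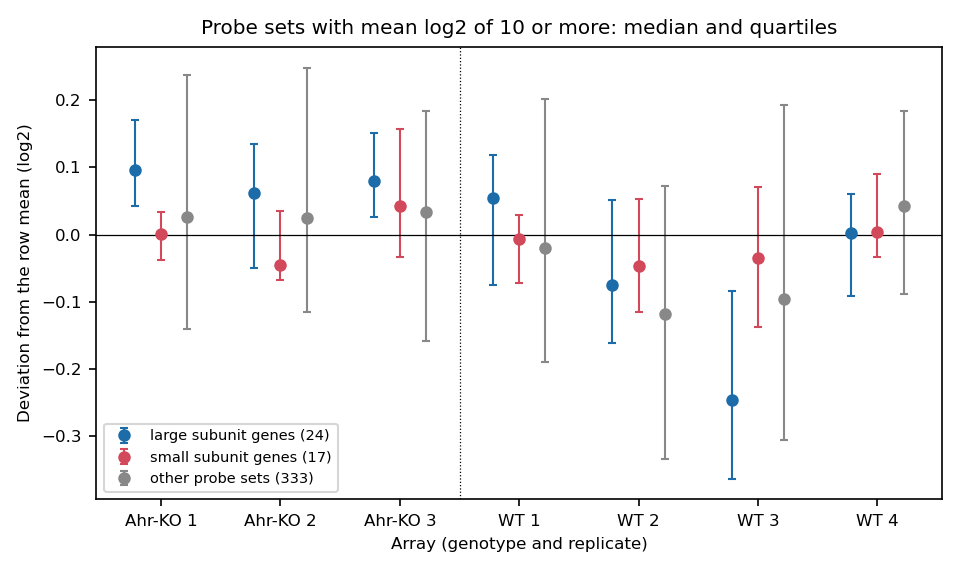
Median (point) and quartiles (bar) of each array's deviation from the gene or probe set mean, in log2 units, for the 24 bright large-subunit genes, the 17 bright small-subunit genes and the 333 other bright probe sets. The 333 include 25 shared with ribosomal protein genes. The large-subunit median is lowest on WT 3, at -0.25, while the small-subunit medians stay within 0.05 of 0 on every array.

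Different probe sets of a gene mostly had the same sign where the signal was strong, but not the same size of difference. Of 24 genes with several probe sets of distinct values 13 had differences of 1 sign and 11 of both. Among the 10 with at least 2 bright probe sets, 8 had 1 sign and 2 had both (Rpl4 and Rpl41). The range between the probe sets of these 10 genes had a median of 0.10 and reached 0.32. The median difference of the bright genes was 0.08. Just under a mean of 10, the dimmer probe set of Rpsa (9.96) differed by 0.66, against 0.07 for the brighter. That of Rps19 (9.77) differed by 0.53, against -0.01. Rpl19 had bright probe sets at 4297, 4822 and 4595 in Ahr-KO with 4333, 3917, 3354 and 3879 in WT, and at 1193, 1384 and 1253 with 1157, 1087, 696 and 1112. WT 3 was the lowest array in both. Of the 16 genes not above background on all arrays, 7 also had a probe set shared with other symbols, and in 6 of these the shared probe set was above background on all 7 arrays. A dim probe set of 1 symbol is therefore not read here as a low level of the gene. Over all 57 probe sets shared between a ribosomal protein gene and other symbols, 35 were higher in Ahr-KO and 22 lower, with a median of 0.07, and 1 did not overlap between genotypes. Ribosomal protein genes have many processed copies in the mouse genome, and cross-hybridisation of the probes with them was not tested.

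The presence of a pyrimidine run at the annotated start can be set beside these differences. Of the 22 with the run 15 were higher in Ahr-KO, with a median difference of 0.09, and of the 32 without it 20 were higher, with a median of 0.10. Among the bright genes 11 of 13 with the run were higher (median 0.11) and 12 of 19 without it (median 0.07). The difference between these groups was not tested. Rpl15 and Rpl7a have the run, whereas the windows of Rpl10a, Rps25 and Rps28 do not. Other messengers that carry the tract, such as those of elongation factors, can be set beside them too. Of 18 measured, 12 were higher and 6 lower, their median was 0.07, and none was at an unadjusted p below 0.05. Eef1a1, which delivers transfer RNA to the ribosome, read 2558, 2823 and 2466 in knockout HSC and 2101, 2442, 3569.6 and 2732 in wild-type HSC, and here WT 3 was the highest array. Fau, which encodes Rps30 fused to a ubiquitin-like protein, read 4099, 3603 and 3507 in knockout and 3579.5, 4026, 2750.3 and 3869 in wild-type HSC, with WT 3 lowest.

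Other genes of ribosome production and control, read in the same fit, had none at an adjusted p below 0.05 and 4 of 123 (3.25%) at an unadjusted p below 0.05, against 4.21% of all annotated probe sets. Of 45 measured assembly factors 27 were higher in Ahr-KO and 18 lower, the median was 0.16, and 1 was at an unadjusted p below 0.05. That gene was Bms1, a GTPase of small-subunit assembly, at 580.3, 731 and 87.9 in knockout HSC and 57.2, 68.9, 20.1 and 5.11 in wild-type HSC. All Ahr-KO arrays lay above all WT arrays, and the difference was 3.64 with a standard error of 1.07 (unadjusted p = 0.00954, adjusted p = 0.963, limma). Npm1, an abundant nucleolar chaperone, read 1417, 1378 and 1286 in knockout and 1422, 1335, 970.3 and 1399.8 in wild-type HSC and overlapped. Of 19 genes of RNA polymerase I, which makes the ribosomal RNA, 6 were higher and 13 lower, with a median of -0.27. The 1 at an unadjusted p below 0.05, the shared subunit gene Polr2l, was below background on every array.

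Of 16 regulators of TOP messengers 7 were higher and 9 lower, with a median of -0.26. Mtor, the kinase at the head of this pathway, was the 1 gene at an unadjusted p below 0.05, at 126, 94.5 and 158 in knockout HSC and 46.7, 34.1, 22.9 and 27.8 in wild-type HSC. All Ahr-KO arrays were above background and only WT 1 among the WT arrays, and the difference was 1.93 with a standard error of 0.46 (unadjusted p = 0.00321, adjusted p = 0.963, limma). Larp1, which holds TOP messengers back when mTOR is off, read 244, 89.9 and 375 in knockout and 237, 158, 112 and 276 in wild-type HSC and overlapped. Of 13 transcription factors tied to ribosomal protein genes 7 were higher and 6 lower, the median was 0.24, and none was at an unadjusted p below 0.05. Of 11 p53 targets and regulators 3 were higher and 8 lower, with a median of -0.41. Only 1 of the 11 was above background on all 7 arrays. The 1 at an unadjusted p below 0.05 was Trp53inp1, at 11.3, 9.25 and 8.51 in knockout HSC and 22.8, 14.4, 21.6 and 46.5 in wild-type HSC, above background only on WT 4. Over all 123 genes of these lists the number at an unadjusted p below 0.05 was 8 (6.50%) without Ahr-KO 1, against 4.11% of all annotated probe sets, and 9 (7.32%) without WT 1, against 3.93%.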

How the data were processed

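Each probe set has 1 deposited linear intensity on each array, made by the authors with Affymetrix Expression Console, per the submitters' processing notes. The summarization of probes, any background correction and any normalization were not given in the sources used here. Array medians were 16.9 to 22.1, so the deposited values do not share 1 distribution, and 800 to 1621 of 41155 probe sets per array were listed at 0. This does not tell which normalization was applied at an earlier step. An array has no read depth, and the number of arrays limits the precision.

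The platform annotation named genes for 25335 probe sets. Tests were two-sided and used limma 3.58.1 in R 4.3.3 (lmFit and eBayes) on log2(intensity + 1) with genotype alone in the model, over the 7 arrays, and Benjamini-Hochberg adjustment over the 25335 (threshold 0.05). The standard errors are moderated and exceed the own spread of steady genes, and the added 1 shrinks the fold change of dim genes.

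Every ribosomal protein gene could be named. Values on every array were given for the genes with the 5 highest and 5 lowest means, the 8 smallest unadjusted p-values per direction, the 5 largest and 5 smallest spreads, for genes without overlap or with probe sets of opposite sign, and for genes with a known role. The members, the lists and this rule were chosen with earlier results of these data known. Of each other list, genes with the smallest unadjusted p could be named. The background mark, the split at a mean of 10, and the values of Ahr, Slamf1, Rpl7, Rpl14, Rpl19, Rps10, Fau, Npm1, Eef1a1 and Larp1 were chosen after values were seen. All 67 genes matched the RefSeq gene table. Alternatives were leaving out each array, a replicate block, quantile normalization, median centring, a filter on dim probe sets, a pseudocount of 16, other sets of probe sets, array weights, trended, robust or no moderation, the mean of a gene's probe sets, standard subunits only, and an adjusted threshold of 0.25.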

Additional observations from a re-analysis of the deposited data

Results flagged for a closer look

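In the 4 WT arrays, 1 value stood apart from the other 3 in 2 of the 67 genes, by Dixon's gap test at the 95% level, where chance alone gives about 1 group in 20. For Rpl32 this was WT 3, at a log2 value of 11.73 (intensity 3386) against 12.34 to 12.43 on the other WT arrays. For Rps24, a small-subunit protein that is mutated in some cases of Diamond-Blackfan anemia, it was WT 3 again but on the high side, at 11.74 (intensity 3410) against 11.42 to 11.44.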

How the results depend on the processing

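No ribosomal protein gene passed the adjusted threshold under any of the 21 alternatives, and the smallest adjusted p over genes and alternatives was 0.884. The number of genes at an unadjusted p below 0.05, 1 in the standard fit, was 0 with the replicate block, the filter on dim probe sets, the pseudocount of 16, all probe sets tested, array weights, a robust prior or standard subunits only; it was 3 with an intensity trend, 2 without moderation, and 0 to 1 when an array was left out. The number of genes without overlap was 8 to 13 when an array was left out. The small-subunit bright genes higher in Ahr-KO fell from 11 to 5 of 17 after quantile normalization. For the gene lists, the number at an unadjusted p below 0.05 was 5 to 9 when an array was left out and 2 with the filter on dim probe sets. For 29 genes followed singly (ribosomal protein genes, Bms1 and Mtor), 544 of 546 differences under alternatives kept their direction. Many of the 546 could not change. The trend, the robust prior, no moderation, the filter and the other sets of probe sets alter the test and leave the difference as it was. The replicate block repeated the differences of a fit with 1 array left out. The 29 also do not stand for all 67 genes. The exceptions among the 546 were both of Rps28, at 0.0027 after median centring and 1.17 with the mean of its probe sets, which weighs its dim probe set equally. The cause of the other changes was not tested. Over all 67 genes, 37 kept their direction under every alternative run and 30 did not, among them Rpl27a, at -0.35 without WT 1, and Rpl37a, at -0.59 without WT 2.

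Same-numbered arrays of the genotypes did not deviate together, with correlations over probe sets of 0.02, -0.06 and 0.01, so the numbers were not taken as pairs. With the replicate block, which leaves out WT 4, 47 of 67 genes were higher, the median was 0.08, and 0 genes were at an unadjusted p below 0.05.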
